A study of Mus musculus with 6 samples.

Results

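Histone genes were measured in freshly sorted basal cells of the mouse mammary epithelium, from wild type mice and from mice without Trp53 and Cdkn2a. Members were taken by symbol, as genes of the H1f, H2ac, H2bc, H3c and H4c series that have a probe set of their own, meaning that the array annotation gave it 1 symbol. This rule found 29 of 22180 genes, namely 8 genes of the linker histone H1, 6 of H2A, 8 of H2B and 7 of H4, and 0 of H3. Wild type cells came from 3 samples and knockout cells, labelled Trp53-/-, p16ink4a-/- and p19arf-/-, from 3 samples, each hybridised to 1 array as a biological replicate. All mice were adult virgin females of 8 to 14 weeks, and the labels speak of 1 mouse per sample. The glands were digested enzymatically, blood and endothelial cells were depleted with beads, and the basal fraction was isolated on a flow sorter with antibodies to CD49f and CD24, among others. How the alleles were deleted is not given in the sources used here. No label states that the replicates were separate litters or days, so p-values measure the spread between these samples. Trp53 was not analysed here, and Cdkn2a read 6.42, 5.84 and 6.48 in wild type and 6.25, 6.31 and 6.39 in knockout cells, with overlapping groups; where its probes lie relative to the deleted part is not known here, so the targeted genes did not check the labels.

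Histones package DNA. Pairs of H2A, H2B, H3 and H4 form the nucleosome core, and H1 binds the linker DNA where it enters and leaves the core. Most histone genes are replication-dependent: they lie in clusters, are transcribed in S phase under Npat, and give mRNAs without a poly(A) tail that end in a stem-loop bound by Slbp. Variant histones, such as H1.0, H1X, H2A.Z and H3.3, are made throughout the cell cycle from single genes with polyadenylated mRNA. The p53 and RB pathways both restrain entry into S phase, and Cdkn2a acts upstream of both.

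Coverage of the family by single probe sets was partial. The annotation listed 66 symbols of these series, of which 29 had a probe set of their own and 37 appeared only in probe sets that list several genes. All 12 H3 symbols, 11 of 17 H2A symbols, 8 of 16 H2B symbols, 5 of 12 H4 symbols and 1 of 9 H1 symbols were in the latter class. Replication-dependent core histone genes of 1 type are close in coding sequence, so a probe set assigned to 1 of them may have read transcripts of its copies, and its signal is uncertain in that sense. Linker histone genes differ more from each other, and no identity between members was computed here. Signals are log2 values whose height depends on the probes, so levels were compared between arrays for 1 gene and not between genes. Of the 29 members, 18 had a mean signal under 5 over all arrays, a limit used here for dim probe sets, and 11 had a mean of 5 or more.

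The promoters of the members are shown first, with matches to elements known from H2B and H1 promoters that also occurred in members of other types. RefSeq promoter sequences (build GRCm38.p6, 250 bases before to 50 after the annotated start) were matched for 27 of the 29 members, all but H2bc21 and H4c14. Of these, 21 lie on chromosome 13, 3 on chromosome 3, 2 on chromosome 6 and 1 on chromosome 15. The octamer ATTTGCAT, the element through which the factor Oct-1 acts on H2B genes in S phase, was searched on both strands. It was found in 5 of 7 H2B promoters, always in the gene's own direction, and in 1.74% of the 32851 promoters of the table. In the windows below the octamer is in capitals, read in the direction of the gene.

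H2bc1: gaattccccttATTTGCATgcacccagcac
H2bc3: ttgagtctcttATTTGCATaaagcctttga
H2bc12: catttcactttATTTGCATacgaagttcta
H2bc14: ctctcgtctctATTTGCATaacagcgtgta
H2bc18: tgtgaaacctcATTTGCATacaagctctat

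These windows lie at chr13:23934302-23934331 on the minus strand for H2bc1, chr13:23746633-23746662 on the plus strand for H2bc3, chr13:22035780-22035809 on the plus strand for H2bc12, chr13:21722008-21722037 on the plus strand for H2bc14 and chr3:96269641-96269670 on the plus strand for H2bc18. The other H2B promoters, of H2bc9 and H2bc22, held no such match in this window. H2A promoters held the octamer in 3 of 6 cases, each time on the strand opposite to the H2A gene. For H2ac1 and H2ac12 that octamer is the same stretch of DNA as the one shown for H2bc1 and H2bc12, since each pair is transcribed outward from a common promoter. The promoter windows share 220 bases in the first pair and 277 bases in the second. Promoters of H1 and H4 members held 0 octamers, among 8 and 6 promoters.

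Another element, known from linker histone promoters, is the AC box AAACACA. It was found in 4 of 8 H1 promoters, all in the direction of the gene, and on either strand in 1 of 6 H2A, 2 of 7 H2B, 0 of 6 H4 and 7.18% of all promoters. The H2A match, in H2ac1, and the H2B match in H2bc1 are the same stretch of DNA in their common promoter. The 4 windows below, with the AC box in capitals, are those of 3 somatic H1 genes and of the testis gene H1f6.

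H1f2: tgaagtgtaacAAACACAagttgggcgca
H1f3: tgaggggcaacAAACACAgccacaaggca
H1f5: tggggactaacAAACACAatttgggattg
H1f6: ggggggaaaagAAACACAaatgcccctcc

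They lie at chr13:23738684-23738712 on the plus strand for H1f2, chr13:23554899-23554927 on the plus strand for H1f3, chr13:21780725-21780753 on the minus strand for H1f5 and chr13:23695686-23695714 on the plus strand for H1f6. The AC box began 112, 122, 117 and 114 bases before the annotated start in H1f2, H1f3, H1f5 and H1f6. The CCAAT box, searched as CCAAT on both strands, was in 6 of 8 H1, 6 of 6 H2A, 7 of 7 H2B and 1 of 6 H4 promoters, and in 37.4% of all promoters. The TATA box, searched as TATAAA on both strands, was in 3 of 8 H1, 5 of 6 H2A, 4 of 7 H2B and 4 of 6 H4 promoters, and in 13.6% of all. A match is a description of the letters and does not show that a factor bound there in these cells.

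No member of the family was called different between the genotypes. With limma, 0 of 29 members passed an adjusted p of 0.05, where 0 of all 22180 genes did (0.0%), and the smallest adjusted p over the members was 1.0. At an unadjusted p under 0.05 the count was 0 of 29, beside 3.32% of all genes (736 genes). The smallest unadjusted p among the members was 0.165, for H1f6. Wild type and knockout arrays overlapped for every member, 29 of 29, while they did not overlap for 7.68% of all genes. Of the members 13 were higher and 16 lower on average, while 48.3% of all genes were higher. The median log2 difference of the members was -0.013, and that of all genes -0.007. By type the median differences were -0.057 for H1, -0.034 for H2A, -0.044 for H2B and 0.029 for H4. Single arrays moved these counts. Without wild type replicate 2, the unadjusted count was 3 of 29 (H2ac20, H2bc3 and H4c12, all lower), beside 4.3% of all genes, and 5 members did not overlap, beside 18.4% of all genes. Without wild type replicate 1, the corresponding counts were 3 (H2bc1 and H4c9 lower, H2bc9 higher), beside 8.06%, and 4, beside 24.3%. For each gene named here the array left out was the lowest wild type array, or the highest for H2bc9. Its removal moved the difference in the stated direction by construction. H2ac20, H2bc1 and H2bc9 had a mean signal under 5. Without any 1 of the other 4 arrays 0 members had an unadjusted p under 0.05, beside 2.5% to 3.43% of all genes. In these fits 1 or 2 members did not overlap, beside 14.4% to 16.4% of all genes.

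The size of difference these arrays can bound varies by gene. The 95% interval of the genotype difference lay within 0.5 log2 units of 0 for 10 members and within 1 unit for 26. For the remaining 3, H2bc3, H4c8 and H4c9, the interval reached beyond 1 unit in 1 direction. A missed threshold therefore does not show that the genotypes are alike for these genes.

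**Figure D1:**
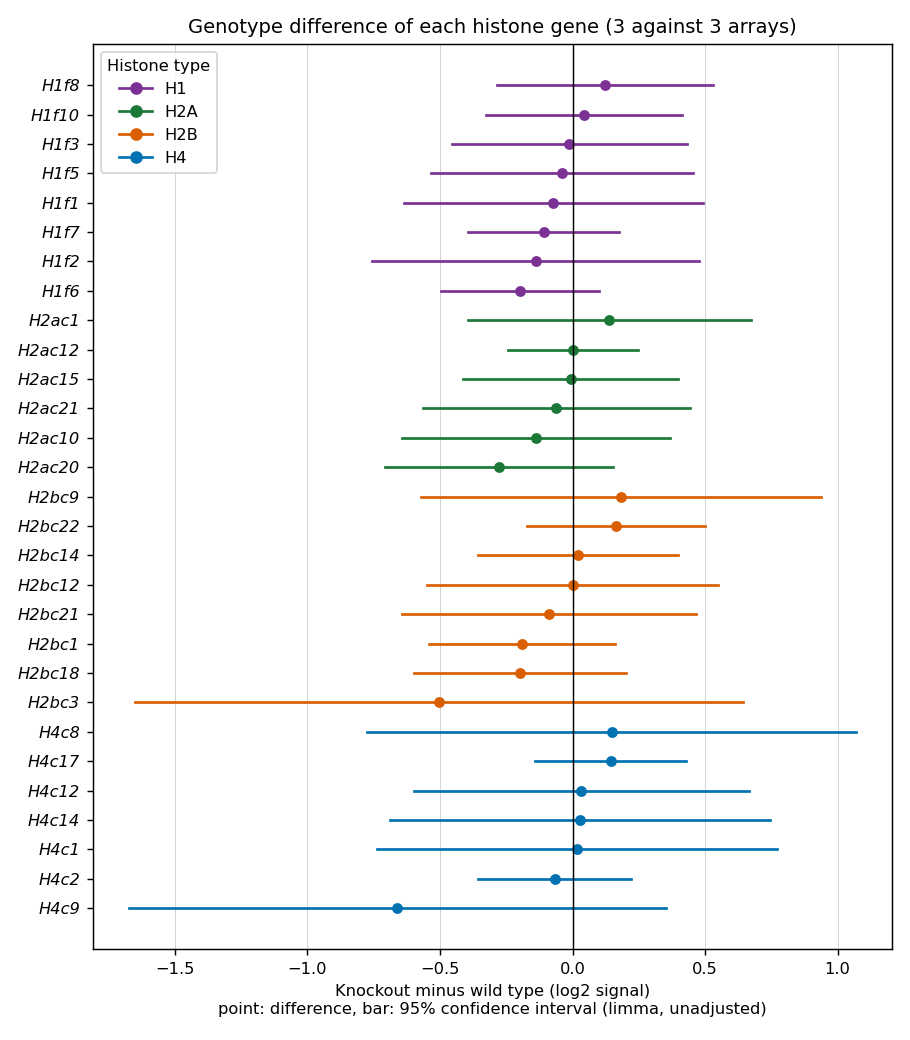
Difference between knockout and wild type basal cells in log2 signal for each of the 29 histone genes (points), with the unadjusted 95% confidence interval from limma (bars), coloured by histone type. Every interval includes 0, and the bars of H2bc3 and H4c9 are the longest.

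Among the 8 linker histones 2 were higher and 6 lower, and none passed. All but H1f2 and H1f10 were dim, with a mean signal under 5. H1f2 (H1.2), H1f3 (H1.3), H1f5 (H1.5) and H1f1 (H1.1) are somatic, replication-dependent genes of the chromosome 13 cluster. H1f2 read 6.20, 6.57 and 6.62 on wild type arrays 1, 2 and 3 and 6.17, 6.94 and 5.85 on knockout arrays 1, 2 and 3. The highest and the lowest of these arrays, replicates 2 and 3, were both knockout arrays, so the groups overlapped fully. The log2 difference was -0.14 with a standard error of 0.272 (95% interval -0.75 to 0.48), and it turned to 0.10 without knockout replicate 3. H1f3 had 4.21 ± 0.389 in wild type and 4.20 ± 0.155 in knockout cells (SD, n = 3), H1f5 2.93 ± 0.289 in wild type and 2.89 ± 0.407 in knockout cells (SD, n = 3) and H1f1 3.49 ± 0.364 in wild type and 3.42 ± 0.459 in knockout cells (SD, n = 3), with differences of -0.01, -0.04 and -0.07. Each of these 3 signs turned when at least 1 of the arrays was left out.

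H1f10, which encodes the replication-independent variant H1X, was steadier. It read 5.88, 5.69 and 5.87 in wild type and 5.98, 5.997 and 5.59 in knockout cells, a difference of 0.04 with a standard error of 0.164 (95% interval -0.33 to 0.41). The 3 germ cell linker histones, all dim here, were H1f6 (H1t, of spermatocytes), H1f7 (of spermatids) and H1f8 (of oocytes). H1f6 read 4.59, 4.77 and 4.46 in wild type and 4.38, 4.35 and 4.49 in knockout cells, so only wild type replicate 3 fell inside the knockout range, and the difference was -0.20 with a standard error of 0.131 (95% interval -0.50 to 0.10) with an unadjusted p of 0.165 (limma adjusted p = 1.0). H1f7 and H1f8 differed by -0.11 and 0.12. H1f0, the gene of H1.0, was not analysed here.

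Among the 6 H2A genes 2 were higher and 4 lower. H2ac10, a replication-dependent gene, read 8.90, 8.21 and 8.92 on wild type arrays 1, 2 and 3 and 8.42, 8.73 and 8.45 on knockout arrays 1, 2 and 3. Wild type replicates 1 and 3 lay above every knockout array and wild type replicate 2 below every one, which left a difference of -0.14 with a standard error of 0.224 (95% interval -0.64 to 0.37). Leaving out wild type replicate 2 gave -0.37, and leaving out wild type replicate 1 or 3 gave -0.0275 or -0.0158. H2ac1 encodes the testis form TH2A and shares its promoter with H2bc1, which encodes TH2B. H2ac1 differed by 0.14 and H2bc1 by -0.19, of opposite sign, and neither passed (limma adjusted p = 1.0 for both). H2ac1 was highest on knockout replicate 3, at 6.38, and H2bc1 on wild type replicate 2, at 3.04.

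H2ac20, a gene of the chromosome 3 cluster, had the smallest unadjusted p of the H2A genes. It read 4.06, 3.37 and 4.002 in wild type and 3.41, 3.68 and 3.51 in knockout cells. Here too wild type replicates 1 and 3 lay above all knockout arrays and wild type replicate 2 below them, for a difference of -0.28 with a standard error of 0.190 (95% interval -0.71 to 0.15) and an unadjusted p of 0.179 (limma adjusted p = 1.0). Without wild type replicate 2, the lowest wild type array, the difference was -0.50, larger by construction (unadjusted p = 0.00585, limma adjusted p = 1.0). In that fit 4.3% of all genes had an unadjusted p under 0.05. H2ac12 had the smallest spread of all members, between 2.49 and 2.66 over the 6 arrays, at the dim end of the scale. H2ac15 and H2ac21 differed by -0.0063 and -0.06.

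**Figure D2:**
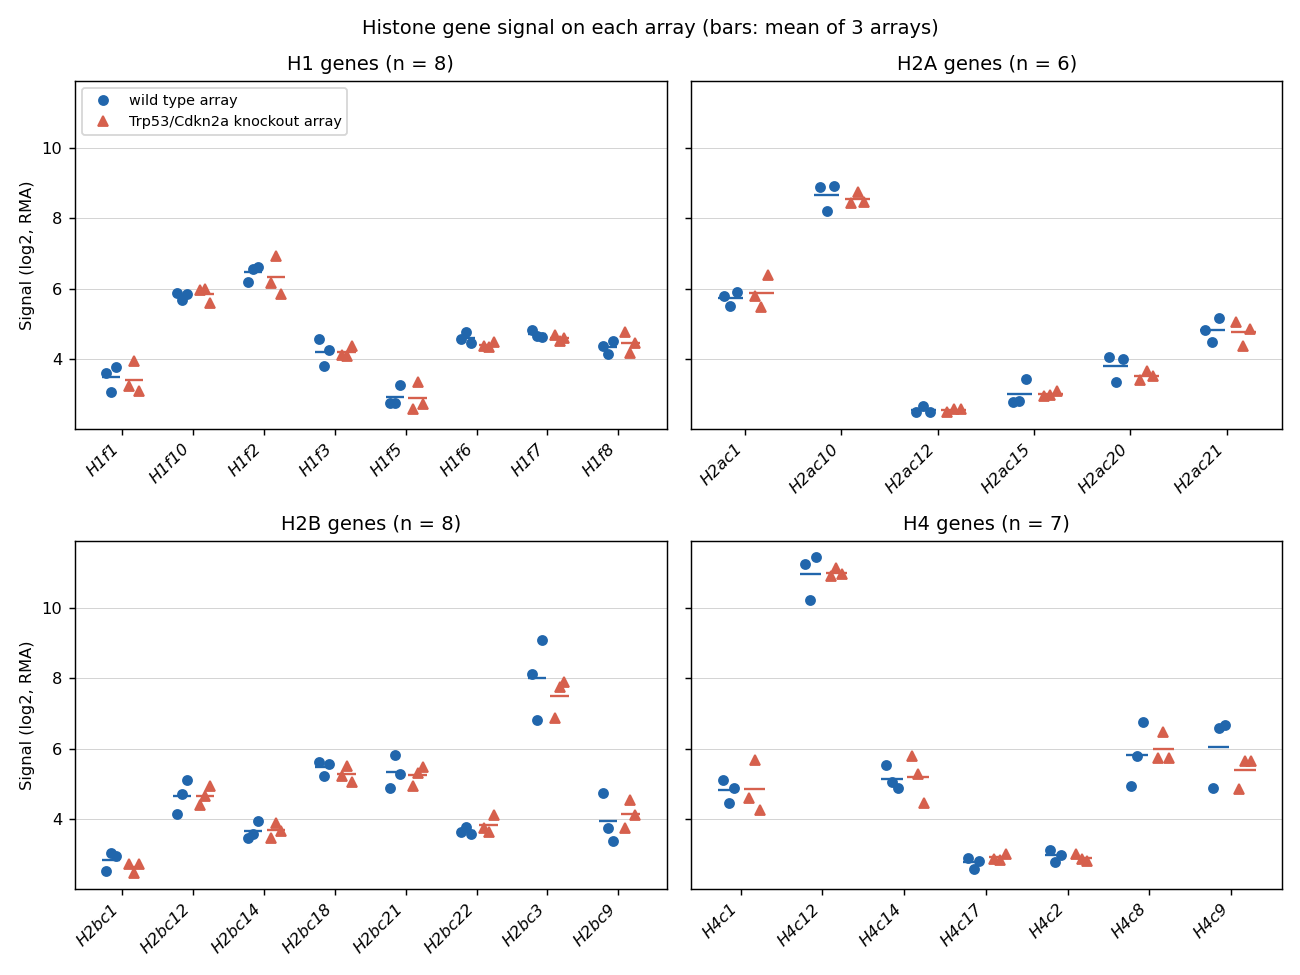
Log2 signal of each of the 29 histone genes on each array, in panels by histone type (circles wild type, triangles knockout, bars the mean of 3 arrays, replicates 1 to 3 from left to right in each group). The groups overlap for every gene, and wild type H2bc3 spans 6.83 to 9.08.

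H2bc3 was the member with the largest spread between arrays. It is a replication-dependent H2B gene of the chromosome 13 cluster. Its promoter, at chr13:23746484-23746783 on the plus strand, is printed whole, with matches to the octamer, CCAAT and TATA motifs on either strand in capitals.

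H2bc3: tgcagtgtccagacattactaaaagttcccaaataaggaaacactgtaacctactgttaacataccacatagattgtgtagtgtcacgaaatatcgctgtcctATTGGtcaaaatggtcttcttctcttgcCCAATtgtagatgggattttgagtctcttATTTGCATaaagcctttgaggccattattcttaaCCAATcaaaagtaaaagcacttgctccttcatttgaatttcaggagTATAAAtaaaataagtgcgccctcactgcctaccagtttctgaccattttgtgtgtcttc

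H2bc3 read 8.14, 6.83 and 9.08 on wild type arrays 1, 2 and 3 and 6.88, 7.74 and 7.91 on knockout arrays 1, 2 and 3. The wild type arrays alone spanned 2.24 log2 units, from the lowest to the highest of all 6 arrays, and the knockout arrays lay between them. Group means were 8.02 ± 1.13 in wild type and 7.51 ± 0.550 in knockout cells (SD, n = 3), a difference of -0.50 with a standard error of 0.506 (95% interval -1.65 to 0.64) with an unadjusted p of 0.345 (limma adjusted p = 1.0). The difference was -1.10 without wild type replicate 2 and 0.03 without wild type replicate 3, so its sign rests on the latter array. Arrays of the same replicate number differed by -1.25, 0.91 and -1.17.

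The other H2B genes had smaller differences. H2bc18, of the chromosome 3 cluster, read 5.64, 5.22 and 5.57 in wild type and 5.24, 5.52 and 5.07 in knockout cells, a difference of -0.20 with a standard error of 0.176 (95% interval -0.60 to 0.20) that lay between -0.33 (wild type replicate 2 left out) and -0.0927 (knockout replicate 3 left out). H2bc9 read 4.76, 3.75 and 3.37 in wild type and 3.76, 4.54 and 4.13 in knockout cells, with its highest and lowest values both on wild type arrays and a difference of 0.18 with a standard error of 0.333 (95% interval -0.57 to 0.94). Leaving out wild type replicate 3 or knockout replicate 2 turned its sign, to -0.11 and -0.0154. Without wild type replicate 1, the highest wild type array, H2bc9 was 0.58 higher in the knockout, a larger gap by construction (unadjusted p = 0.0385, limma adjusted p = 0.599). In that fit 8.06% of all genes had an unadjusted p under 0.05. H2bc22 differed by 0.16, H2bc21 by -0.09, H2bc14 by 0.02 and H2bc12 by 0.0007. The shared-promoter partner of H2bc12, H2ac12, differed by 0.0029.

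The clustered H4 genes encode near-identical proteins from separate promoters. H4c9 had the largest mean difference of the family. Its promoter, at chr13:22041313-22041612 on the minus strand, held a TATA match, in capitals, 137 bases before the start, and no CCAAT, octamer or AC box match.

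H4c9: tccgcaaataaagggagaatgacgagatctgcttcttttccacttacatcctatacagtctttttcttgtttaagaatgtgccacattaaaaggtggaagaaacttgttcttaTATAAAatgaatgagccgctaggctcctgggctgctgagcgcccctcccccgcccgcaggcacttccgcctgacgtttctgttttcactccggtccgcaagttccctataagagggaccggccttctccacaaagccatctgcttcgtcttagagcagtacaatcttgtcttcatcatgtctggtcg

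H4c9 read 4.89, 6.59 and 6.67 on wild type arrays 1, 2 and 3 and 4.85, 5.66 and 5.66 on knockout arrays 1, 2 and 3. Wild type replicates 2 and 3 lay above all knockout arrays, while wild type replicate 1 and knockout replicate 1 were almost equal and lowest. The means were 6.05 ± 1.01 in wild type and 5.39 ± 0.469 in knockout cells (SD, n = 3), a difference of -0.66 with a standard error of 0.447 (95% interval -1.67 to 0.35) and an unadjusted p of 0.174 (limma adjusted p = 1.0). With replicate number as a block the unadjusted p was 0.0131 (limma adjusted p = 0.885). The knockout minus wild type differences within replicate numbers 1, 2 and 3 were -0.042, -0.93 and -1.01. Without wild type replicate 1, the lowest wild type array, the difference was -1.24, larger by construction (unadjusted p = 0.00145, limma adjusted p = 0.236). In that fit 8.06% of all genes had an unadjusted p under 0.05. Without wild type replicate 2 or 3 the H4c9 difference was -0.39 or -0.35.

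H4 genes did not follow 1 pattern over the arrays. H4c8 read 4.95, 5.81 and 6.76 on wild type arrays 1, 2 and 3 and 5.75, 6.47 and 5.73 on knockout arrays 1, 2 and 3. Its 3 wild type arrays spanned 1.81 log2 units and held both extremes, around a difference of 0.15 with a standard error of 0.407 (95% interval -0.77 to 1.07). H4c12 read 11.24, 10.22 and 11.45 on wild type arrays 1, 2 and 3 and 10.91, 11.14 and 10.96 on knockout arrays 1, 2 and 3, with wild type replicate 2 below every other array and a difference of 0.03 with a standard error of 0.279 (95% interval -0.60 to 0.67). Without that low array the difference of H4c12 moved down by construction, to -0.34 (unadjusted p = 0.0334, limma adjusted p = 1.0). In that fit 4.3% of all genes had an unadjusted p under 0.05. H4c1 and H4c14 spanned 1.42 and 1.34 log2 units, in each case with the extremes on knockout arrays, and differed by 0.02 and 0.03. H4c17 and H4c2, both dim, differed by 0.14 and -0.07.

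The arrays of 1 genotype were spread more for these genes than for the median gene. The residual SD, which is the spread of arrays around their group mean, had a median of 0.311 log2 units over the members and 0.207 over all genes. It was above the median of all genes for 22 of 29 members and above their 90th percentile, 0.396, for 9. The range of the wild type arrays alone was larger than the genotype difference for 29 of 29 members, and that of the knockout arrays for 27. No share of all genes was computed for these ranges, so they do not compare the histone genes with others. By type the median residual SD was 0.276 for H1, 0.300 for H2A, 0.311 for H2B and 0.535 for H4. The 5 germ cell genes H1f6, H1f7, H1f8, H2ac1 and H2bc1 had a median of 0.215. Several other lists were spread about as much or more, with medians of 0.514 for mitosis genes, 0.512 for luminal markers, 0.309 for fibroblast markers and 0.303 for DNA replication genes. Histone chaperone genes had 0.282, genes of histone mRNA supply 0.269 and variant histones outside the symbol rule 0.208. These are descriptions of 6 arrays, with no test, and members that share probes or sequence are not independent of each other.

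**Figure D3:**
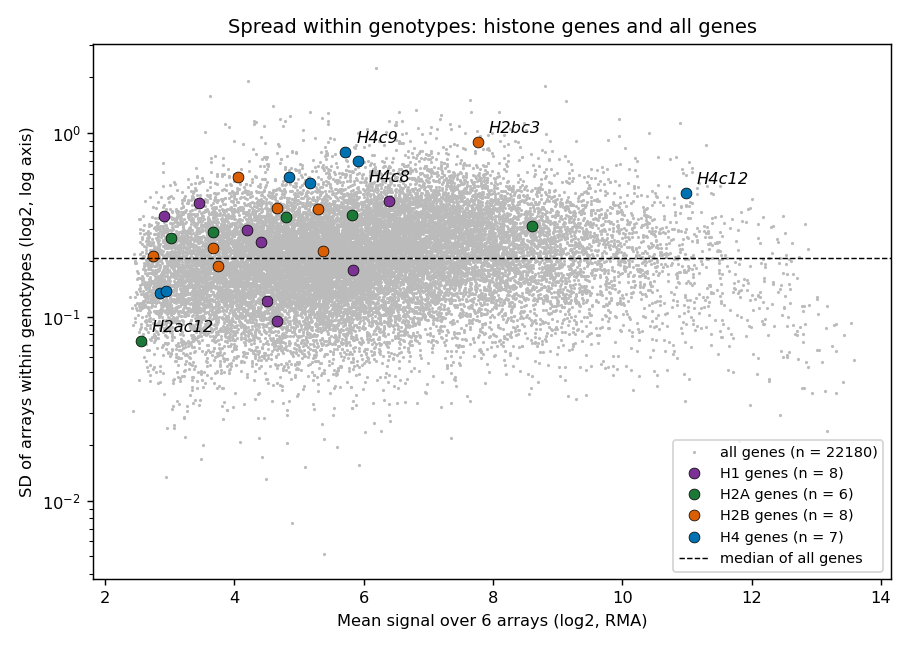
Residual SD of the arrays within genotypes (log2 units, log axis) against mean signal over the 6 arrays (log2) for all 22180 genes (grey) and the 29 histone genes (coloured by type), with the median of all genes dashed. H2bc3, H4c9 and H4c8 lie highest among the members, at 0.887, 0.784 and 0.705.

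On average, the 29 members were read highest and lowest on 2 wild type arrays. The mean of the probe sets that list several genes, given below, was highest and lowest on knockout arrays. Wild type replicate 3 was the highest array for 9 members and the lowest for 2, and wild type replicate 2 was the lowest for 9 and the highest for 4. The mean signal over the 29 members was 4.85, 4.72 and 5.06 in the 3 wild type samples and 4.73, 4.93 and 4.80 in the 3 knockout samples. Wild type replicate 3 was thus highest and wild type replicate 2 lowest, and the 3 knockout arrays lay between them. All 4 types had their highest mean on wild type replicate 3, but for H1 this was a near tie. The H1 mean was 4.676 there and 4.673 on knockout replicate 2. The H4 means were 5.40, 5.36 and 5.78 in the 3 wild type samples and 5.41, 5.71 and 5.28 in the 3 knockout samples, and the H2B means 4.66, 4.59 and 4.87 in the 3 wild type samples and 4.40, 4.73 and 4.76 in the 3 knockout samples. The lowest array was wild type replicate 2 for H2A, knockout replicate 1 for H2B and knockout replicate 3 for H1 and H4.

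**Figure D4:**
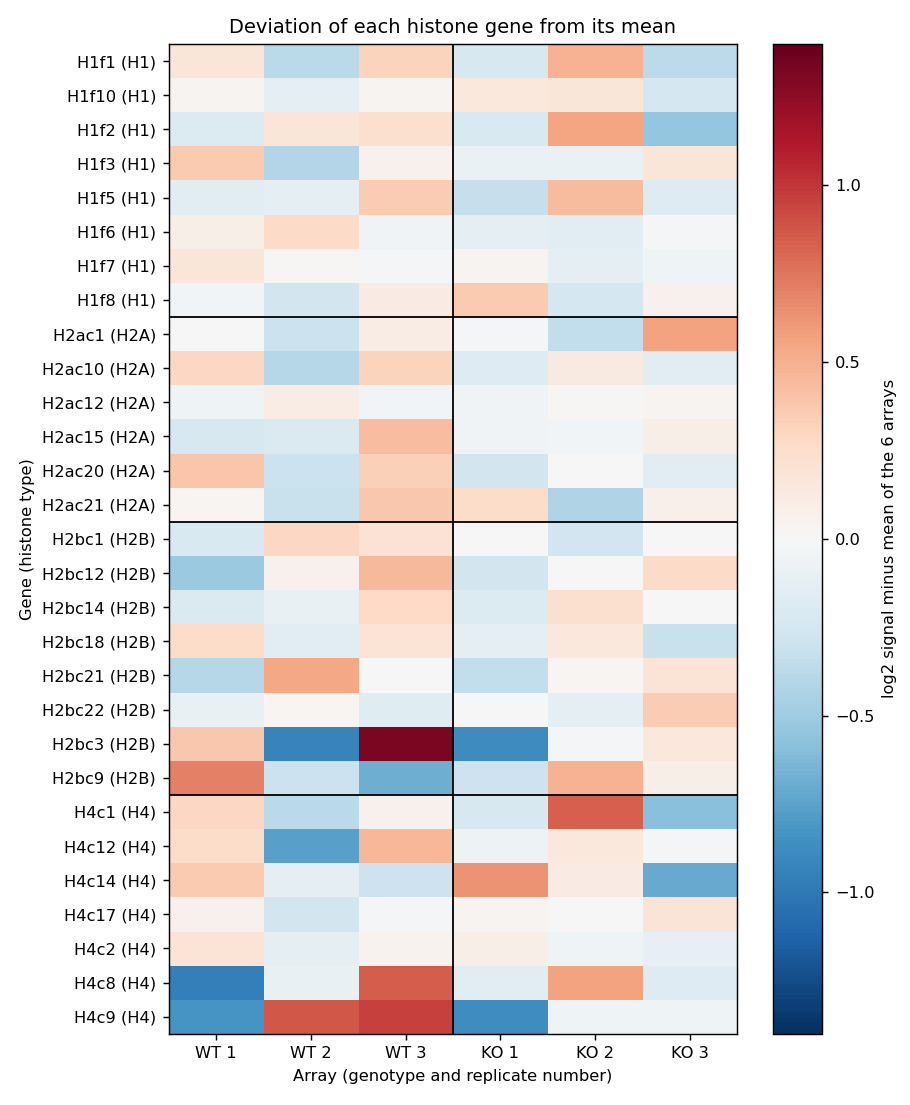
Heat map of each histone gene (rows, by type) on each array (columns, WT wild type, KO knockout), as log2 signal minus the gene's mean over the 6 arrays. H2bc3, H4c12 and H2ac10 are low on wild type replicate 2, while H4c9 and H2bc21 are high there.

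Cell cycle genes were also highest on wild type replicate 3. Of 23 measured G2/M and mitosis genes, 21 were lower and 2 higher in the knockout on average, where 48.3% of all genes were higher. With limma 0 passed the adjusted threshold and 0 had an unadjusted p under 0.05, beside 3.32% of all genes. Their mean signals were 5.63, 5.10 and 6.40 in the 3 wild type samples and 5.17, 5.37 and 5.57 in the 3 knockout samples, also highest on wild type replicate 3 and lowest on wild type replicate 2. Mki67, the proliferation marker Ki-67, read 7.19, 6.27 and 8.35 in wild type and 5.66, 6.44 and 7.51 in knockout cells, and its extremes were wild type replicate 3 and knockout replicate 1. Of 25 DNA replication genes 18 were lower and 7 higher, again with 0 past either limit, and their means were 6.50, 6.55 and 6.85 in the 3 wild type samples and 6.54, 6.59 and 6.48 in the 3 knockout samples, highest on wild type replicate 3. In bulk samples, fewer cells in S phase and less histone mRNA per cell cannot be told apart. The part of cycling cells in the spread of the histone genes was not tested.

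Markers of other cell types differed between arrays, too. All 6 fibroblast markers were higher in the knockout, with means of 6.76, 6.76 and 6.39 in the 3 wild type samples and 7.39, 7.20 and 7.36 in the 3 knockout samples. Of these 4 had an unadjusted p under 0.05, beside 3.32% of all genes, and 0 passed the adjusted threshold. Of 11 luminal markers 10 were lower and 1 higher, where 48.3% of all genes were higher. With limma 0 of them had an unadjusted p under 0.05, beside 3.32% of all genes, and 0 did not overlap, beside 7.68%. Luminal means were 7.84, 8.90 and 8.61 in the 3 wild type samples and 8.22, 8.28 and 7.88 in the 3 knockout samples, with wild type replicate 2 highest. Leukocyte and endothelial marker means spanned 5.10 to 5.39 and 4.96 to 5.32, and 9 basal markers, Krt14 and Acta2 among the list, spanned 10.3 to 10.7. Their part in the histone values was not tested.

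**Figure D5:**
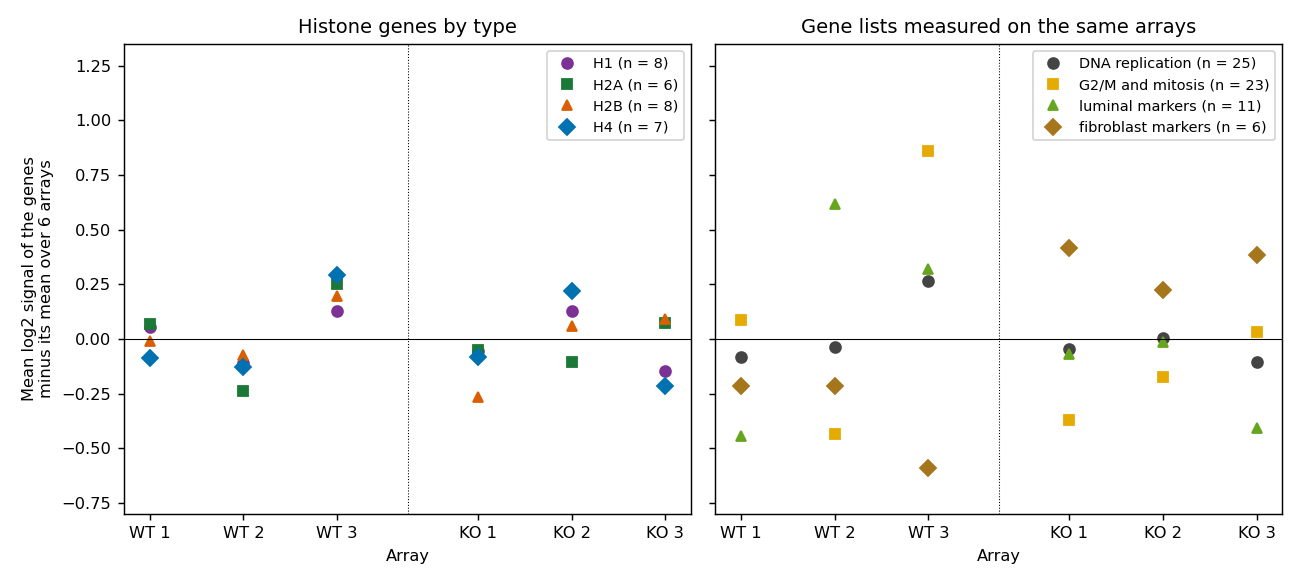
Mean log2 signal of each gene group minus its mean over the 6 arrays, for histone genes by type (left) and for DNA replication, mitosis, luminal and fibroblast genes (right), by array (WT wild type, KO knockout). All 4 histone types and both cell cycle lists are highest on wild type replicate 3, where the mitosis list lies 0.86 above its mean. H1 is almost as high on knockout replicate 2 (0.126, beside 0.130).

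Of 12 genes for transcription and end processing of histone mRNA, 5 were higher and 7 lower. The count at an unadjusted p under 0.05 was 0, beside 3.32% of all genes, too low a share for a count of 0 in 12 genes to stand apart. Slbp, which binds the stem-loop, read 8.77, 8.22 and 8.37 in wild type and 8.87, 9.03 and 8.54 in knockout cells, a difference of 0.36 with a standard error of 0.206 (95% interval -0.11 to 0.83) that ran from 0.24 to 0.52 with 1 array left out. Npat, the coactivator of replication-dependent histone genes, read 9.03, 8.06 and 8.62 in wild type and 8.88, 9.02 and 8.91 in knockout cells, a difference of 0.36 with a standard error of 0.240 (95% interval -0.18 to 0.91), with wild type replicate 2 lowest. It was 0.11 without that array and 0.59 without wild type replicate 1. Cpsf2, a subunit of the cleavage complex, did not overlap between the groups, at 7.16, 7.18 and 7.34 in wild type and 6.90, 6.83 and 6.99 in knockout cells (unadjusted p = 0.0675, limma adjusted p = 1.0).

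Of 14 histone chaperone and import genes, 8 were higher and 6 lower, and 1, Daxx, had an unadjusted p under 0.05, beside 3.32% of all genes. Daxx, which deposits H3.3 together with Atrx, read 7.16, 6.90 and 6.95 in wild type and 7.70, 7.80 and 7.16 in knockout cells, a difference of 0.55 with a standard error of 0.206 (95% interval 0.09 to 1.02) with an unadjusted p of 0.0252 (limma adjusted p = 1.0). The groups did not overlap for Daxx. Hat1, which acetylates new H4, differed by -0.46 and Asf1a, a chaperone of H3 and H4, by 0.38, both with overlapping groups.

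Variant histones outside the symbol rule were measured by 8 genes, 2 higher and 6 lower, with 0 at an unadjusted p under 0.05 (3.32% of all genes) and 0 without overlap (7.68% of all genes). Macroh2a2, a macroH2A gene, read 5.78, 6.55 and 5.99 in wild type and 5.84, 5.66 and 5.43 in knockout cells, a difference of -0.46 with a standard error of 0.218 (95% interval -0.96 to 0.03). It was -0.24 without wild type replicate 2 and -0.63 without wild type replicate 1. Cenpa, the centromeric H3 variant, differed by -0.29, and H2az2, an H2A.Z gene, by -0.12.

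Probe sets that list several genes, with a histone gene of the rule among them, give the only view of H3. They were fitted together with all 41345 rows of the table. There were 38 of them, 35 with distinct values, since 3 repeat the values of another. Some, but not those of H3, also list symbols outside the rule. Of the 35, 16 were higher and 19 lower in the knockout (49.9% of all rows were higher), 0 passed the adjusted threshold (0.0% of all rows), 1 had an unadjusted p under 0.05 (3.49% of all rows) and 4 did not overlap between genotypes (7.96% of all rows). The mean over the 35 sets was 4.92, 4.81 and 5.11 on wild type arrays and 4.80, 5.11 and 4.79 on knockout arrays. Knockout replicate 2 was highest, almost equal to wild type replicate 3, and knockout replicate 3 was lowest. H2A and H3 sets were highest on knockout replicate 2 and H4 sets on knockout replicate 1. H2B sets were highest on wild type replicate 3, and sets with H1 genes on wild type replicate 1 or 2. The 12 H3 sets had differences from -0.63 to 0.52, with a median of 0.0378. A bright H3 set that lists 8 genes read 6.55, 6.44 and 6.95 in wild type and 6.66, 7.01 and 6.53 in knockout cells, with overlapping groups.

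Shared H2B sets were lower in the knockout in 6 of 7 cases, with a median difference of -0.33, and all overlapped. One that lists 4 genes read 9.74, 8.75 and 10.33 on wild type arrays 1, 2 and 3 and 8.96, 9.59 and 9.28 on knockout arrays 1, 2 and 3, with wild type replicate 3 highest and wild type replicate 2 lowest, as in H2bc3. Another, listing 3 other genes, read 8.96, 9.97 and 10.07 in wild type and 8.91, 10.08 and 8.14 in knockout cells and was high on wild type replicate 2 instead. A bright shared H2A set that lists 3 genes read 11.14, 11.36 and 11.86 in wild type and 10.97, 11.61 and 11.02 in knockout cells, a difference of -0.26 with a standard error of 0.241 (95% interval -0.83 to 0.31). The single set with an unadjusted p under 0.05 lists 13 genes, not all of them of the H4 series, and is dim. It read 2.78, 2.82 and 2.87 in wild type and 3.26, 3.97 and 3.48 in knockout cells, a difference of 0.75 with a standard error of 0.192 (95% interval 0.30 to 1.20) with an unadjusted p of 0.00574 (limma adjusted p = 1.0). The 3 other sets that list 13 genes differed by 0.28, -0.0352 and 0.0777, all with overlapping groups.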

How the data were processed

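RNA of 6 samples of sorted basal cells was amplified with a whole-transcript kit, labelled with biotin and hybridised to 1 array each. The deposited values are log2 signals, 1 for each probe set and array. RMA and Transcriptome Analysis Console 4.0 were used, per the submitters' processing notes. RMA corrects background, normalizes between arrays and summarizes probes. Genome build and scan dates are not given in the sources used here. Of 41345 rows, 23521 had 1 gene symbol, 1814 several and 16010 were unnamed here. Where a gene had more than 1 row, that of highest mean was used, which left 22180 genes. No arrays were identical, array medians over genes lay between 5.73 and 5.81, and arrays correlated across genes with r of 0.971 to 0.988. Precision is limited by the 3 arrays per group.

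The comparison used limma 3.58.1 (R 4.3.3; lmFit, and eBayes with its prior following the mean signal). Tests were two-sided, p-values were adjusted by Benjamini-Hochberg over all genes, and the threshold was 0.05. Differences are knockout minus wild type, with moderated errors. The fit was tested on simulated data. Named members are all H1 genes and, in each other type, the 2 of highest mean and the 2 of smallest p in each direction, plus the extremes of spread; the other members, and shared probe sets described by number of genes, were added after their values were seen. Context lists gave their 3 genes of smallest p, Slbp, Npat and Mki67. The members and lists were chosen with earlier results of these data known.

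Deviations of arrays from their group mean had correlations, over all genes, of 0.121, 0.25 and 0.127 for the 3 pairs of equal number; wild type replicate 1 and knockout replicate 3 had 0.130. The numbers were treated as possible pairs, from the titles alone. Alternatives were the replicate block, a constant prior, array weights, quantile normalization, median centring, a filter on dim genes, other row choices and leaving out each array. Erythroid markers and Trp53 were not analysed here. Promoters come from a RefSeq table of GRCm38.p6.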

Additional observations from a re-analysis of the deposited data

How the results depend on the processing

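With limma, 0 genes passed the adjusted threshold under each of the 15 alternatives. The count of members at an unadjusted p under 0.05, 0 as reported, was 3 with array weights (H2ac20, H2bc3 and H4c9, all lower in the knockout, beside 8.88% of all genes), 1 with the replicate block (H4c9, lower, beside 5.01%), 1 with probe sets of several symbols kept (a shared H2A set) and 0 to 3 when 1 array was left out (beside 2.5% to 8.06%). The count of members whose groups do not overlap, 0 as reported, was 1 with median centring (H4c17, above), beside 7.8% of all genes. It was 1 with probe sets of several symbols kept. In that setting shared probe sets joined or replaced members, so neither count is of the same 29 genes. No share of all genes was computed there for either count. When 1 array was left out the count of members without overlap was 1 to 5, beside 14.4% to 24.3% of all genes, as fewer arrays make overlap less likely by construction. It was 5 without wild type replicate 2 (H2ac10, H2ac20, H2bc18, H2bc3 and H4c12, all lower), beside 18.4% of all genes. Wild type replicate 2 was the lowest wild type array for each of these genes, so their direction follows from leaving it out. The median log2 difference of the members lay between -0.107 and 0.026 when 1 array was left out and was -0.148 with array weights, shifts smaller than the spread between replicates.

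The genes named by the rule gave 467 values under the alternatives, of which 435 kept their direction and 0 passed the threshold. The sign of H4c12 turned to -0.245 and that of H4c8 to -0.348 with array weights, that of H2ac12 to -0.0187 with median centring, and that of H4c17 to -0.0296 where a probe set of several symbols took its place; the cause was not tested. When 1 array was left out, the differences that changed sign ranged as follows: H1f1 -0.33 to 0.0930, H1f10 -0.0281 to 0.18, H1f2 -0.45 to 0.0958, H1f3 -0.22 to 0.17, H1f5 -0.27 to 0.13, H1f8 -0.0322 to 0.28, H2ac1 -0.11 to 0.35, H2ac12 -0.0287 to 0.0553, H2bc3 -1.10 to 0.0263, H2bc9 -0.11 to 0.58, H4c12 -0.34 to 0.27, H4c2 -0.15 to 0.0131 and H4c8 -0.30 to 0.61. With replicate number as a block no other call changed. All rows tested, chosen after seeing the data, changed no sign. Precision is limited by 3 arrays per genotype for every member.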
